A study of Mus musculus with 6 samples.

Results

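Protein disulfide isomerases and the oxidase that drives them were followed in 6 tumours of mouse MTE-Ras cells. The genes were 9 chosen by symbol, P4hb, Pdia3, Pdia4, Pdia5, Pdia6, Txndc5, Erp29, Erp44 and Ero1l, of 55450 genes in the deposited tables. All 9 had 1 row each and passed edgeR's filter on low counts, as did 22056 genes in all. MTE-Ras cells are mouse tracheal epithelial cancer cells that carry an oncogenic Ras mutation, and were implanted subcutaneously in C57BL/6 mice. The study injected PV-10, which contains the dye rose bengal, into 3 of the tumours and phosphate-buffered saline (PBS) into the other 3. The host keeps its own immune cells, stroma and vessels, so bulk tumour RNA mixes these with the cancer cells. Age, dose and the time from injection to collection are not given in the sources used here.

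Proteins of the secretory pathway are folded in the endoplasmic reticulum (ER), where disulfide isomerases form, break and rearrange disulfide bonds with thioredoxin-like domains. The oxidase ERO1 takes electrons from reduced isomerases and passes them to oxygen, which yields hydrogen peroxide. Several of these genes are classical targets of the unfolded protein response, the programme that raises folding capacity under ER stress, and the title of the study names ER stress after PV-10.

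The ER stress element is a sequence through which that response is known to act. The 5′ flanks of Pdia6, P4hb and Pdia4 are shown because Pdia6 holds the complete element, while P4hb and Pdia4, whose fitted changes lay on opposite sides of 0 without passing the test, do not. The element, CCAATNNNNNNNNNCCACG, was searched on both strands in the 250 bases before each RefSeq start (GRCm38.p6). Capitals mark CCAAT and CCACG on either strand, which are also the ends of that element. The stretches lie at chr12:17266339-17266544 (plus strand), chr11:120573254-120573503 (minus) and chr6:47813513-47813762 (minus), and end before the gene start of Gencode release M21.
Pdia6: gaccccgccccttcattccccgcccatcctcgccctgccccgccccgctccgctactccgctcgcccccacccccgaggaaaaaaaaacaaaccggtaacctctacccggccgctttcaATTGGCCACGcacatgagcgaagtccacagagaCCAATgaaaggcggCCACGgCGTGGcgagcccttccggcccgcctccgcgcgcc
P4hb: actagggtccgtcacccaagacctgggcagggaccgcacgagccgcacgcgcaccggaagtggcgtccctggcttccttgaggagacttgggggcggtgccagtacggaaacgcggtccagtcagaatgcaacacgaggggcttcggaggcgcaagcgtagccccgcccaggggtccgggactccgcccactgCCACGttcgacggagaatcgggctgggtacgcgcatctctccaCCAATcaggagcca
Pdia4: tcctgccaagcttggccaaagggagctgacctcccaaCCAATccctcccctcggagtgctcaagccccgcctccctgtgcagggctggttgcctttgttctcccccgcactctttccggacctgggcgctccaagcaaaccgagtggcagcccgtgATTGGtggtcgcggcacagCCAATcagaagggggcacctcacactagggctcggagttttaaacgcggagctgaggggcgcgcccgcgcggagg

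RefSeq windows were found for 8 of the 9 genes, Erp29 being without one, and number 11 in all, since Erp44 and Txndc5 have several starts. The complete element was matched in 1 of the 11, that of Pdia6, from 98 to 80 bases before the start, and in 0.113% of 32851 windows of all genes. CCACG alone was matched in 8 of the 11 and in 28.3% of all windows, and was not found in those of Pdia3 and Pdia4. By gene it was matched for 6 of the 8. The Erp44 windows overlap, and both hold the same CCACG. Of the 3 Txndc5 windows, the 2 with CCACG lie inside the gene as Gencode draws it. CCAAT alone was matched in 6 of the 11 and in 33.8% of all windows. The ER stress element II, whose end is CCACG, was matched in 0 of the 11 and in 0.0304% of all windows. The core ACGTG, which the hypoxia factors are known to bind and which can overlap CCACG read on the other strand, was matched in 7 of the 11 and in 16.6% of all windows.

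Several facts of the libraries touch all that follows. Total counts were 60082066, 36730318 and 94203331 in PV-10 tumours 1, 2 and 3 and 87386266, 92608727 and 98717951 in PBS tumours 1, 2 and 3. Genes with a count numbered 35314, 28343 and 22764 in PV-10 tumours, against 19163, 22895 and 23068 in PBS tumours. The gene Gm42418 had the most counts in every tumour. It held 11.4%, 11.3% and 8.94% of counts in PV-10 tumours, against 3.1%, 2.55% and 3.49% in PBS tumours. PV-10 tumour 3 stood apart from its group: across genes its log2 CPM (counts scaled to a common library size) correlated with PV-10 tumours 1 and 2 at 0.874 and 0.822, and with the 3 PBS tumours at 0.909 to 0.930. Counts of longer transcripts were relatively low in PV-10 tumours 1 and 2. Against the mean of all libraries, log2 CPM changed per doubling of effective length by -0.28, -0.23 and -0.04 in PV-10 tumours 1, 2 and 3, and by 0.18, 0.20 and 0.16 in PBS tumours 1, 2 and 3. TPM, the deposited length-corrected unit, are scaled to a common total, most of which lay outside protein-coding genes. Protein-coding genes held 30.4%, 31.8% and 38.1% of all TPM in PV-10 tumours 1, 2 and 3, against 42.2%, 48.1% and 42.4% in PBS tumours 1, 2 and 3, so TPM and CPM differ in what stays level.

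The epithelial label was checked against 10 markers. Keratins 8, 18 and 19 were present, Krt18 at 97.4, 111 and 170 TPM in PV-10 tumours and 210, 181 and 219 TPM in PBS tumours. In CPM the Krt18 groups overlapped, at 300, 315 and 354 in PV-10 tumours and 378, 235 and 321 in PBS tumours. Its log2 change in counts was 0.05 (edgeR adjusted p = 0.910). The other markers were low, 6 of the 10 averaging under 1 TPM. Epcam was at 0.25, 0.54 and 0.06 TPM in PV-10 tumours and at 0, 0.2 and 0.2 TPM in PBS tumours. Esrp1 had 89, 11 and 8 counts in PV-10 tumours and 0 counts in all PBS tumours. At 0.18, 0.04 and 0.02 TPM in PV-10 tumours it was below the filter on low counts and was not tested. Cdh1 lay wholly lower in PV-10 tumours in CPM and TPM, as did 16.8% and 31% of all tested genes. Its log2 change was -1.12 (edgeR adjusted p = 0.0627). Of the 8 markers tested, 6 had positive and 2 negative log2 changes in counts, against 12903 positive and 9153 negative of all 22056 tested genes. Of the positive ones, Epcam, Krt5, Krt14 and Grhl2 averaged under 1 TPM. In the test 0 markers were called (edgeR), against 3.17% higher and 1.92% lower of all tested genes.

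The family spanned a wide range of levels, with the same 3 genes first in every tumour. On the per-length scale of TPM the order of mean level over 6 tumours was Pdia3, P4hb, Pdia6, Pdia4, Txndc5, Erp44, Ero1l, Erp29 and Pdia5. Pdia3, P4hb and Pdia6 ranked in that order above all others in 6 of 6 tumours, and Pdia5 the last. Ranges over the 6 tumours did not overlap between Pdia3 and P4hb, between P4hb and Pdia6, or between Erp29 and Pdia5. They overlapped between all other neighbours. Pdia6 still exceeded Pdia4, and Pdia4 exceeded Txndc5, in 6 of 6 tumours. Txndc5 exceeded Erp44 in 4 of 6, Erp44 exceeded Ero1l in 5 of 6, and Ero1l exceeded Erp29 in 4 of 6. The exceptions to the Txndc5 and Erp44 order, and to the Ero1l and Erp29 order, were PV-10 tumours 1 and 2.

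**Figure D1:**
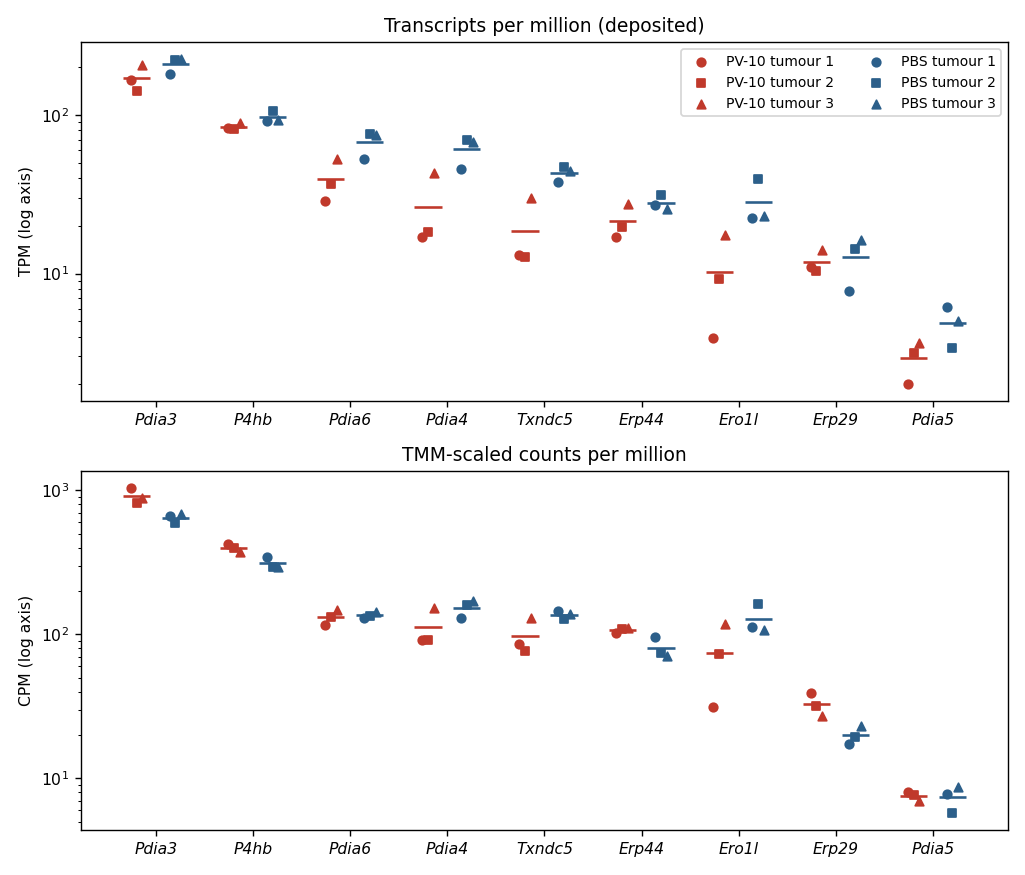
Level of each gene in each tumour, as deposited TPM above and as TMM-scaled CPM below, both on log axes. Points are tumours and lines are group means (n = 3 each). On the CPM scale Pdia3 averaged 917 in PV-10 and 644 in PBS tumours, while on the TPM scale it averaged 171 in PV-10 and 210 in PBS tumours.

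No gene of the family passed the test between PV-10 and PBS tumours. Of 9 tested, 0 were higher and 0 lower (edgeR quasi-likelihood test on counts, Benjamini-Hochberg adjusted p under 0.05 over 22056 genes, n = 3 per group), against a background of 3.17% higher and 1.92% lower among all tested genes. At an unadjusted p under 0.05 there was 1, Erp29, on the higher side, against 15.6% of all genes higher and 14.5% lower. DESeq2, the tool named in the labels, called 2 higher, Pdia3 and Erp29, and 0 lower, against 19.3% higher and 7.74% lower of the genes it tested. The fitted log2 changes had a median of 0.03 over the 9 genes and of 0.30 over all tested genes, and 5 of the 9 were positive. The labels count 3 tumours a group without saying that each came from its own mouse, so p-values measure the spread between these tumours. RNA from fewer cells of a type and less RNA per cell cannot be told apart in bulk tumours.

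Pdia3, also known as ERp57, acts on glycoproteins bound by calnexin and calreticulin and helps load peptides onto MHC class I (mm10 chromosome 2, 121413775 to 121438687). It had 1045, 824 and 883 CPM in PV-10 tumours 1, 2 and 3, against 662, 589 and 680 CPM in PBS tumours 1, 2 and 3. The lowest PV-10 value exceeded the highest PBS value. The log2 change was 0.51 (95% interval -0.07 to 1.09, edgeR adjusted p = 0.217). With each library's length trend removed it was 0.68 (95% interval 0.10 to 1.27, edgeR adjusted p = 0.138). In TPM, which is also per length, the same gene was at 166, 142 and 207 in PV-10 tumours and 180.5, 222 and 227 in PBS tumours, so there the groups overlapped and the mean was lower in PV-10 tumours.

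P4hb encodes the founding disulfide isomerase, which is also the beta subunit of collagen prolyl 4-hydroxylase and a subunit of the microsomal triglyceride transfer protein (mm10 chromosome 11, 120560298 to 120573253). Its CPM were 422, 401 and 372 in PV-10 tumours 1, 2 and 3 and 345, 295 and 292 in PBS tumours 1, 2 and 3. The groups did not overlap, and the log2 change was 0.36 (95% interval -0.20 to 0.92, edgeR adjusted p = 0.362). With the length trend removed it was 0.48 (edgeR adjusted p = 0.243). In TPM the direction was the opposite, also without overlap, with 82.7, 81.3 and 89.1 in PV-10 tumours and 92.0, 106 and 93.5 in PBS tumours. With TPM rescaled to protein-coding genes alone, a choice made after seeing these values, P4hb was again higher, at 271.5, 256 and 234 in PV-10 tumours and 218, 221 and 220.4 in PBS tumours. The direction for P4hb thus depends on what the libraries are scaled to.

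Erp29 and Erp44 are relatives without a full redox site. Erp29 helps secretory proteins fold as a chaperone, and Erp44 retains ERO1 and unassembled clients by cycling between the Golgi and the ER. Erp29 (mm10 chromosome 5, 121428590 to 121452506) was at 39.4, 32.0 and 27.1 CPM in PV-10 tumours, against 17.2, 19.3 and 23.1 CPM in PBS tumours. This was the largest positive change of the family in counts scaled by TMM, a log2 of 0.72 (95% interval 0.14 to 1.31, edgeR adjusted p = 0.0996). It became 0.36 (edgeR adjusted p = 0.327) with each library's length trend removed, where Pdia3 had the largest positive change. In TPM the Erp29 groups overlapped. The gene shares 15789 bases with Naa25 on the other strand. The libraries were strand-specific per the labels, but whether counting used strand is not given in the sources used here. Erp44 (mm10 chromosome 4, 48193323 to 48279558) was at 102, 109 and 110.2 CPM in PV-10 tumours, against 95.2, 74.1 and 70.4 CPM in PBS tumours, without overlap (log2 change 0.42, 95% interval -0.14 to 0.98, edgeR adjusted p = 0.291). With the length trend removed the Erp44 change was 0.51 (edgeR adjusted p = 0.217).

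The non-overlap thus depended on the unit: 4 of the 9 genes, Pdia3, P4hb, Erp44 and Erp29, had PV-10 tumours wholly above PBS tumours in CPM, against 22% of all tested genes, and 0 had them wholly below, against 16.8%. In TPM 0 lay wholly above, against 9.58%, and 5 wholly below (P4hb, Pdia6, Pdia4, Txndc5 and Ero1l), against 31%. With protein-coding TPM 1 lay above (P4hb), against 13.1%, and 2 below (Txndc5 and Ero1l), against 28.7% of the protein-coding genes tested.

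Pdia4, Txndc5 and Ero1l had negative log2 changes under every count and TPM setting tried, and in each the PV-10 tumours differed among themselves. Pdia4, or ERp72, has more thioredoxin-like active domains than P4hb (mm10 chromosome 6, 47796141 to 47813430). It had 92.0, 91.8 and 153 CPM in PV-10 tumours 1, 2 and 3, against 129, 159 and 169.7 CPM in PBS tumours 1, 2 and 3. PV-10 tumours 1 and 2 lay below every PBS tumour and PV-10 tumour 3 lay among them. The log2 change was -0.44 (95% interval -1.11 to 0.23, edgeR adjusted p = 0.347).

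Txndc5, or ERp46, is a rapid introducer of disulfide bonds and is known to be abundant in plasma cells and in matrix-producing fibroblasts (mm10 chromosome 13, 38500079 to 38528824). It was at 85.3, 76.0 and 131 CPM in PV-10 tumours, against 144, 129 and 138 CPM in PBS tumours. Again PV-10 tumours 1 and 2 were low and PV-10 tumour 3 lay within the PBS range (log2 change -0.49, 95% interval -1.13 to 0.15, edgeR adjusted p = 0.278). The summed level of 11 plasma and B cell markers was low in both groups, at 9.19 to 16.5 CPM in PV-10 and 4.51 to 7.92 CPM in PBS tumours, with 0 counts of the plasma cell gene Mzb1 in any tumour. The summed level of 9 fibroblast markers, led by Col1a1, overlapped, at 3224 to 6172 CPM in PV-10 and 2606 to 5767 CPM in PBS tumours. Single markers went apart without overlap in CPM, Lum and Fap above PBS tumours (log2 changes 1.29 and 1.32) and Pdgfrb below them (-1.45). Of all tested genes, 22% lay wholly above and 16.8% wholly below. In the test 0 of the 9 were called (edgeR), against 3.17% higher and 1.92% lower of all genes. At an unadjusted p under 0.05, 3 were higher and 1 lower, against 15.6% and 14.5%. The part of either cell type in the Txndc5 values was not tested.

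Ero1l encodes ERO1 alpha, the oxidase that recharges the isomerases and is known as a hypoxia-responsive gene (mm10 chromosome 14, 45283087 to 45318771). It varied most of the 9, over 2.38 log2 units of CPM. Its CPM were 31.2, 73.2 and 118 in PV-10 tumours 1, 2 and 3 and 113, 163 and 106.9 in PBS tumours 1, 2 and 3. The lowest value was that of PV-10 tumour 1, and PV-10 tumour 3 lay among the PBS tumours. The log2 change was -0.78 (95% interval -1.77 to 0.20, edgeR adjusted p = 0.263). Without PV-10 tumour 1 it was -0.41 (edgeR adjusted p = 0.543), and without PV-10 tumour 3 it was -1.29. In TPM the groups did not overlap, at 3.93, 9.20 and 17.5 in PV-10 tumours and 22.4, 39.8 and 23.2 in PBS tumours. Ero1l also has the longest effective length of the family, above 84.1% of tested genes for which one could be derived, and its log2 change became -0.38 (edgeR adjusted p = 0.533) with the length trend removed.

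Pdia6 and Pdia5 had fitted changes near 0 in counts. Pdia6, or P5, works with the chaperone BiP and limits signalling by the ER stress sensors (mm10 chromosome 12, 17266545 to 17284770). It was at 116, 131 and 148 CPM in PV-10 tumours, against 129.98, 134 and 143 CPM in PBS tumours (log2 change -0.04, 95% interval -0.60 to 0.51, edgeR adjusted p = 0.921). In TPM it lay lower in PV-10 tumours without overlap, at 28.6, 36.5 and 52.9 against 53.1, 75.8 and 74.9 in PBS tumours, and the last PV-10 value was close to the first PBS value. Pdia5, a less studied isomerase (mm10 chromosome 16, 35397312 to 35490873), was at 7.99, 7.67 and 6.92 CPM in PV-10 tumours, against 7.81, 5.70 and 8.66 CPM in PBS tumours (log2 change 0.03, 95% interval -0.62 to 0.68, edgeR adjusted p = 0.960). These intervals still hold changes of about 0.5 on the log2 scale in either direction.

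Calls within the family changed on leaving out PV-10 tumour 3. Without it edgeR called 2 of the 9 higher, Pdia3 (log2 change 0.54, adjusted p = 0.0375) and Erp29 (0.85, adjusted p = 0.0189), and 3 lower, Pdia4 (-0.73, adjusted p = 0.0170), Txndc5 (-0.76, adjusted p = 0.00947) and Ero1l (-1.29, adjusted p = 0.0301). The background then was also far larger, with 25% of all tested genes higher and 16.4% lower. On leaving out any of the other 5 tumours, 0 of the 9 were called in either direction, but hardly any gene was. Then 0.00879% (PV-10 tumour 1), 0.021% (PV-10 tumour 2), 0.00356% (PBS tumour 1), 0.00361% (PBS tumour 2) and 0.00357% (PBS tumour 3) of all tested genes were higher. Genes were lower only without PBS tumour 2, at 0.00361%. Erp29 was called higher among genes with a mean count of at least 50 (0.90, edgeR adjusted p = 0.0467), against 10.1% of those genes higher and 7.04% lower. It was also called among protein-coding genes alone, a set chosen after seeing the data (0.88, edgeR adjusted p = 0.0480), against 9.58% higher and 7.77% lower. With the replicate number as a block 0 of the 9 were called, against 4.78% higher and 8.24% lower, and with the length trend removed 0, as for all 16912 genes in that fit.

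With limma on log2(TPM + 1) 3 were lower, Pdia4 (-1.29, adjusted p = 0.0465), Txndc5 (-1.27, adjusted p = 0.0426) and Ero1l (-1.54, adjusted p = 0.0449), against 17.2% of all genes lower and 1.14% higher, where the median over all genes was -0.21. With log2(TPM + 0.1) the count was again 3 lower, against 16.2% lower and 1.9% higher. With protein-coding TPM, which was rescaled after seeing the data, 0 of the 9 were called, and the adjusted p of Pdia4, Txndc5 and Ero1l were 0.0840, 0.0750 and 0.0722 (limma), against 14.3% of genes lower and 2.82% higher.

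**Figure D2:**
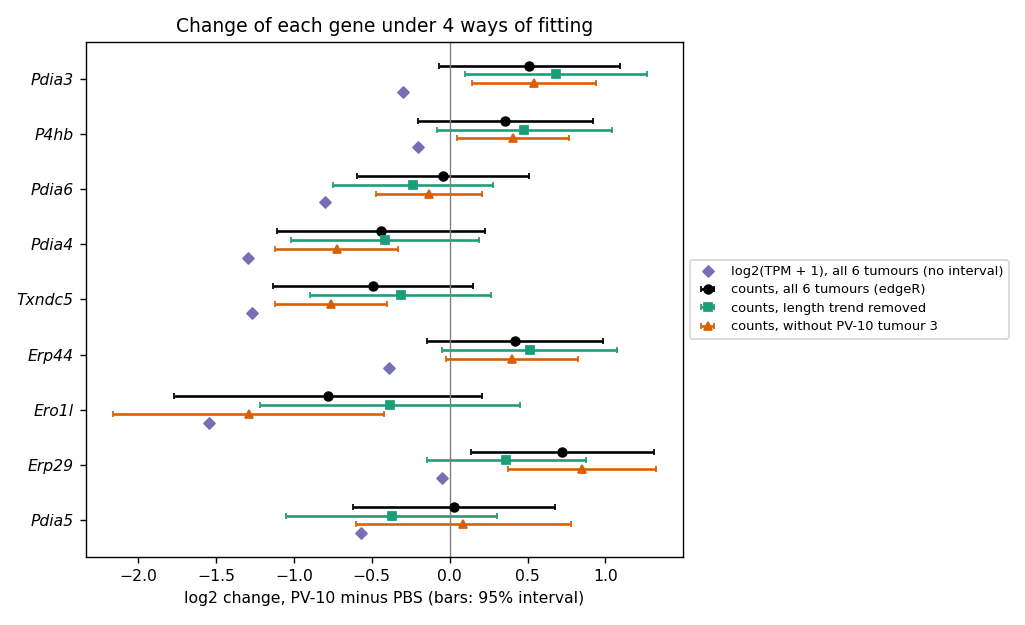
Log2 change of each gene, PV-10 minus PBS, from counts with all tumours, with the length trend removed and without PV-10 tumour 3 (bars are 95% intervals), and from log2(TPM + 1) with no interval drawn. Pdia4, Txndc5 and Ero1l lie left of 0 in all 4 fits, while Pdia3, P4hb, Erp44 and Erp29 lie right of 0 in the 3 count fits and left of it in TPM.

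Shares within a tumour do not depend on scaling between libraries. They still carry each library's trend with effective length, whose part in them was not tested. Of the summed TPM of the 9 genes, Pdia3 held 48.5%, 42.5% and 42.7% in PV-10 tumours 1, 2 and 3, against 38.2%, 36.5% and 39.3% in PBS tumours 1, 2 and 3. Its mean share was 44.6% ± 3.42 in PV-10 and 38.0% ± 1.43 in PBS tumours (SD, n = 3 each). Txndc5 held 3.87%, 3.82% and 6.14% in PV-10 tumours and 7.996%, 7.67% and 7.71% in PBS tumours. Pdia4 held 4.98%, 5.53% and 8.91% in PV-10 tumours, against 9.68%, 11.4% and 11.7% in PBS tumours. The share of Ero1l was 1.15%, 2.76% and 3.62% in PV-10 tumours and 4.74%, 6.53% and 4.02% in PBS tumours. In each of these 4 genes the groups did not overlap, with PV-10 tumour 3 nearest to the PBS tumours for Txndc5, Pdia4 and Ero1l.

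By this measure 2 genes, Pdia3 and Erp29, had larger shares in every PV-10 tumour, against 15.3% of all tested genes set over the same sum. Smaller shares in every PV-10 tumour were found for 4 (Pdia6, Pdia4, Txndc5 and Ero1l), against 23.4%. In shares of counts 1 gene lay above (Pdia3), against 16.5%, and 3 below (Pdia6, Txndc5 and Ero1l), against 25%. Pdia4 and Erp29 overlapped there by narrow margins, Pdia4 with 7.87% in PV-10 tumour 3 and 7.84% in PBS tumour 1. Shares of P4hb, Erp44 and Pdia5 overlapped between groups on both scales.

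**Figure D3:**
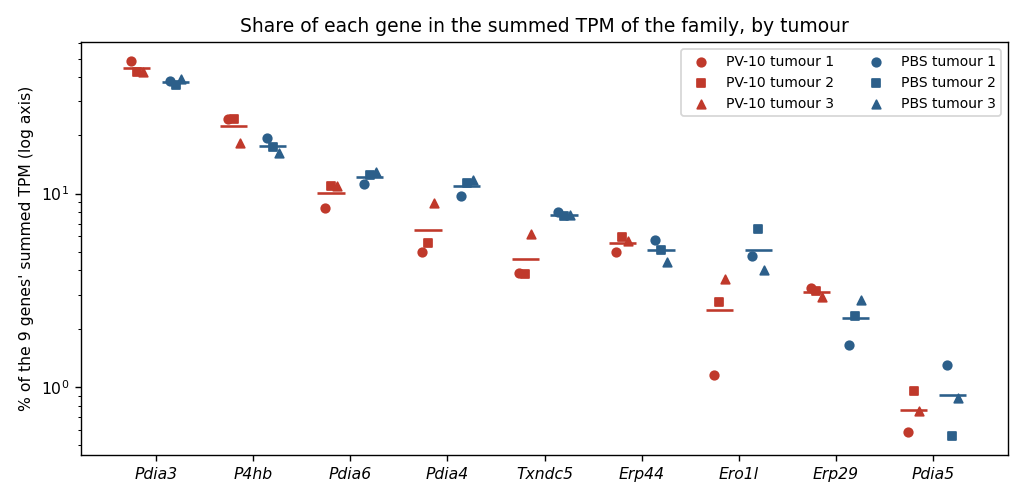
Percent of the summed TPM of the 9 genes held by each gene, per tumour, on a log axis. Points are tumours and lines are group means (n = 3 each). Pdia3 was at 42.5% to 48.5% in PV-10 and 36.5% to 39.3% in PBS tumours, and Txndc5, Pdia4 and Ero1l lay lower in every PV-10 tumour.

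The oxidase was set against P4hb, a main substrate, by a ratio chosen after values were seen, which carries no test. There were 4.75, 11.3 and 19.7 TPM of Ero1l per 100 TPM of P4hb in PV-10 tumours 1, 2 and 3, against 24.35, 37.4 and 24.9 in PBS tumours 1, 2 and 3. In counts the ratio was 7.40, 18.3 and 31.6 in PV-10 tumours and 32.6, 55.2 and 36.6 in PBS tumours. On both scales the groups did not overlap, and in counts PV-10 tumour 3 and PBS tumour 1 were nearly equal. Set over P4hb in the same way, 27.3% of all tested genes lay wholly lower in PV-10 tumours by TPM and 25.2% by counts. The prolyl hydroxylase alpha subunits P4ha1, P4ha2 and P4ha3, which pair with P4hb, summed to 26.9, 30.6 and 49.9 TPM per 100 of P4hb in PV-10 tumours and to 43.3, 75.2 and 48.5 in PBS tumours, with overlap.

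Pdia3 was set against the lectin chaperones that bring it substrates, calreticulin (Calr) and calnexin (Canx). The ratios of Pdia3 to these genes and to Pdia4 were not planned and carry no test. How many of all genes would separate in such ratios was not computed, so non-overlap here is a description only. There were 77.7, 78.2 and 62.9 TPM of Pdia3 per 100 TPM of both together in PV-10 tumours and 54.6, 52.4 and 59.0 in PBS tumours. In counts the ratio was 90.3, 91.4 and 69.5 in PV-10 tumours and 61.9, 55.8 and 63.0 in PBS tumours. The groups did not overlap on either scale, but the separation rested on Canx. Per 100 TPM of Calr alone there were 97.8, 97.45 and 85.5 TPM of Pdia3 in PV-10 tumours and 92.1, 80.5 and 92.0 in PBS tumours, and in counts 129, 131 and 114 in PV-10 tumours and 120.2, 108 and 123 in PBS tumours, with overlap on both scales. Canx itself had 346, 271 and 499 CPM in PV-10 tumours 1, 2 and 3, against 518, 508 and 526 CPM in PBS tumours 1, 2 and 3 (log2 change -0.48, edgeR adjusted p = 0.308). Pdia3 transcripts outnumbered those of Pdia4 by 9.75, 7.69 and 4.796 to 1 in PV-10 tumours and by 3.94, 3.20 and 3.35 to 1 in PBS tumours, by TPM.

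Levels over the 6 tumours were compared by profile, as the root mean square difference of log2 CPM centred on each gene's mean. Within the family P4hb and Erp44 were nearest to each other, at 0.110 log2 units, as were Pdia4 and Txndc5, at 0.164. Ero1l lay far from all others, at 0.512 from Pdia4, its nearest. Among 11931 other genes, each averaging 1 or more in log2 CPM, the nearest to Ero1l was Ndrg1, at 0.0969, and the nearest to Txndc5 was Opa1, at 0.0177. Mrps9 was nearest to Pdia3, at 0.0410, and Gdi2 to P4hb, at 0.0445. With so many genes and 6 tumours, profiles this near are a description only.

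The remaining disulfide isomerase family was likewise without calls. Of 13 further members listed, 9 were tested and 0 were higher and 0 lower (edgeR adjusted p under 0.05). At an unadjusted p under 0.05, 3 were higher and 0 lower, against 15.6% and 14.5% of all genes, and DESeq2 called 3 higher and 0 lower, against 19.3% and 7.74%. Limma on log2(TPM + 1) called 0 in either direction, against 1.14% higher and 17.2% lower of all genes. The median log2 change was 0.34. Without PV-10 tumour 3, 10 were tested, with 3 higher and 2 lower, against 25% and 16.4% of all genes. The most abundant by mean TPM were Txndc12 and the membrane-bound isomerases Tmx3 and Tmx1. Txndc12 averaged 64.3 ± 10.5 CPM in PV-10 and 39.4 ± 5.27 CPM in PBS tumours (log2 change 0.71, edgeR adjusted p = 0.101). Tmx3 and Tmx1 had log2 changes of 0.66 and 0.76 (edgeR adjusted p = 0.137 and 0.0834). These changes in counts were smaller or turned in TPM: on the log2(TPM + 1) scale they were -0.12 for Txndc12, -0.27 for Tmx3 and 0.07 for Tmx1. With the length trend removed they were 0.24, 0.98 and 0.82 for the same genes. Pdia2, Pdilt, Agr2 and Agr3, which are known from particular tissues, were below the filter on low counts.

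Among 11 other genes of thiol oxidation in the ER, all tested, 1 was higher and 0 were lower (edgeR), against 3.17% and 1.92% of all genes. At an unadjusted p under 0.05, 3 were higher and 1 lower, against 15.6% and 14.5%, and DESeq2 called 3 higher and 0 lower, against 19.3% and 7.74%. Limma on log2(TPM + 1) called 1 higher and 1 lower, against 1.14% and 17.2%. The gene called by edgeR was Selenof, a selenoprotein that binds the glycoprotein folding sensor UGGT. It had 970.1, 728 and 333 CPM in PV-10 tumours 1, 2 and 3, against 193, 171 and 181 CPM in PBS tumours 1, 2 and 3. The groups did not overlap, with PV-10 tumour 3 lowest of its group (log2 change 1.90, 95% interval 1.02 to 2.77, edgeR adjusted p = 0.0443). In CPM 22% of all tested genes lay wholly higher in PV-10 tumours. With the length trend removed the log2 change was 1.302 (edgeR adjusted p = 0.0893), and in TPM 1.06 (limma adjusted p = 0.0402). On leaving out any tumour other than PV-10 tumour 3, 0 genes of this list were called, but hardly any gene was. In those fits at most 0.021% of all tested genes were higher and at most 0.00361% lower. Without PV-10 tumour 3, 3 were higher and 2 lower, against 25% and 16.4% of all genes. The list's median log2 change was -0.05. Prdx4, the peroxiredoxin that uses the peroxide made by ERO1, was picked out after its values were seen and had a log2 change of 0.84 (edgeR adjusted p = 0.0728). The same change was 0.17 with the length trend removed and 0.0045 on the log2(TPM + 1) scale. Of the 11 genes, 5 had positive and 6 negative log2 changes in counts. Gpx8 and Qsox1, also picked out after values were seen, had 0.86 and -0.71 (edgeR adjusted p = 0.0774 and 0.136). With the length trend removed these were 0.14 and -0.59. On the log2(TPM + 1) scale they were 0.085 and -1.27, and Qsox1 was the gene called lower (limma adjusted p = 0.0415).

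Of 13 partner genes, which form complexes with the isomerases, all were tested and 0 were higher and 0 lower, against 3.17% and 1.92% of all genes. At an unadjusted p under 0.05, 2 were higher and 0 lower, against 15.6% and 14.5%. DESeq2 called 3 higher and 0 lower, against 19.3% and 7.74%. Limma on log2(TPM + 1) called 0 higher and 4 lower, Canx, Tapbp, Hspa5 and Hsp90b1, against 1.14% and 17.2%. Of these, Hspa5 (BiP) overlapped in CPM, at 276, 278 and 350 in PV-10 tumours and 342, 351 and 355 in PBS tumours. Its log2 change was -0.21 in counts (edgeR adjusted p = 0.592) and -1.63 on the log2(TPM + 1) scale (limma adjusted p = 0.0222). The effective length implied for Hspa5 also moved between tumours, as given at the end. The median log2 change over the 13 partners was -0.17 in counts. Calr averaged 737 ± 95.2 CPM in PV-10 and 550.2 ± 2.65 CPM in PBS tumours (log2 change 0.42, edgeR adjusted p = 0.298). Hsp90b1, the ER form of HSP90, averaged 549.8 ± 141 CPM in PV-10 and 732 ± 62.5 CPM in PBS tumours (log2 change -0.41, edgeR adjusted p = 0.355). Ppib, a prolyl isomerase, averaged 190.1 ± 17.0 CPM in PV-10 and 111 ± 3.92 CPM in PBS tumours (log2 change 0.78, edgeR adjusted p = 0.0720). On the log2(TPM + 1) scale the changes were -0.39 for Calr, -1.27 for Hsp90b1 (limma adjusted p = 0.0354) and -0.016 for Ppib. With the length trend removed they were 0.35, -0.23 and 0.10 for the same genes. Without PV-10 tumour 3, 2 partners were higher and 4 lower, against 25% and 16.4% of all genes.

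**Figure D4:**
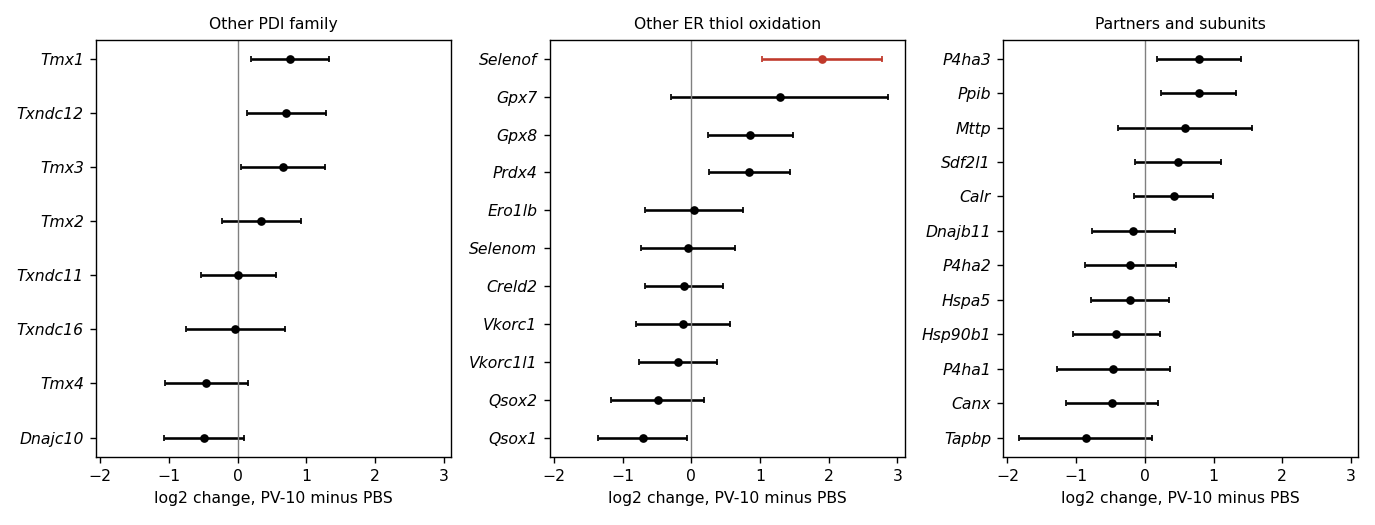
Log2 change, PV-10 minus PBS, with its 95% interval for the tested genes of the other isomerases, of ER thiol oxidation and of the partners, from counts with all 6 tumours (edgeR). Selenof, in red, was the 1 gene called; Erp27 and Clgn, with very few counts, are not drawn.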

How the data were processed

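RNA of 6 tumours was sequenced from strand-specific libraries. Per the labels' protocols, adapters were found with BBMerge 37.02 and removed with cutadapt 1.8.1, reads were aligned to mm10 with STAR 2.7.7a, and RSEM 1.3.0 gave gene counts with Gencode M21. The deposited count table holds whole numbers, and the deposited TPM are the authors' per-length values. RSEM divides reads among similar genes by estimate. Whether counting used strand is not given in the sources used here.

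Counts were tested with edgeR 4.0.16 in R 4.3.3 (filterByExpr, TMM, robust quasi-likelihood fit, Benjamini-Hochberg adjustment over 22056 genes, call at adjusted p under 0.05). CPM use TMM library sizes. Alternatives were DESeq2 1.42.0, limma 3.58.1 on voom weights or on log2(TPM + 1) or log2(TPM + 0.1), other scalings and filters, the replicate number as a block, removal of each library's trend with effective length (count over TPM, spline with 5 degrees of freedom), and each tumour left out. Fits to protein-coding genes alone and to TPM rescaled over them were added after seeing the data. Folds on the log2(TPM + pseudocount) scale understate changes of low genes.

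The genes and lists were chosen with earlier results of these data known. All 9 genes are named. From each further list the called genes are named, up to 4, or the 3 with the highest mean TPM where none was called. The profile neighbour is the nearest gene by root mean square difference. Flanking sequences are from RefSeq (GRCm38.p6), with Ero1l listed there as Ero1a.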

Additional observations from a re-analysis of the deposited data

How the results depend on the processing

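Against 699 genes higher and 423 lower in PV-10 tumours (edgeR), DESeq2 called 5675 and 2270, DESeq2 size factors in edgeR 1469 and 1068, no filter 2037 and 2627, a mean count of at least 50 1593 and 1112, log2(TPM + 1) 251 and 3786, log2(TPM + 0.1) 418 and 3580, and removal of the length trend 0 and 0, with 4615 genes at an unadjusted p under 0.05. Library size alone gave 1461 lower and limma-voom 1181 lower. Of the alternatives added after seeing the data, protein-coding genes alone gave 1549 and 1256, and protein-coding TPM 455 and 2304. Leaving out 1 tumour gave 1 to 6884 higher and 0 to 4515 lower, the highest of each without PV-10 tumour 3. Of the 9 genes, DESeq2 called 2 higher, a mean count of at least 50 called 1 (Erp29), protein-coding genes alone 1 (Erp29), and leaving out 1 tumour 0 to 2. Lower calls were 3 with log2(TPM + 1), 3 with log2(TPM + 0.1), and 0 to 3 on leaving out 1 tumour. The order by TPM kept 7 of 9 places in CPM, 5 in PV-10 tumours alone and 7 in PBS tumours alone. The log2 change turned negative with log2(TPM + 1) and log2(TPM + 0.1) for Pdia3 (-0.30 and -0.30), P4hb (-0.20 and -0.20), Erp44 (-0.39 and -0.40) and Erp29 (-0.046 and -0.045). That of Pdia6 turned positive with DESeq2 (0.060), DESeq2 size factors (0.066), a mean count of at least 50 (0.12) and protein-coding genes alone (0.090), and ranged from -0.13 to 0.052 on leaving out 1 tumour. That of Pdia5 turned negative with library size alone (-0.066), no filter (-0.058), log2(TPM + 1) (-0.57), log2(TPM + 0.1) (-0.71), the length trend removed (-0.37) and protein-coding TPM (-0.30), and ranged from -0.17 to 0.12 on leaving out 1 tumour. The cause of these differences was not tested. Pdia4, Txndc5 and Ero1l stayed negative in all 21 alternatives. With the replicate number as a block, 1054 genes were higher and 1818 lower, and 0 of the 9 were called. Nothing in the labels says that equal numbers share a litter, batch or day, so the numbers were not taken to pair tumours. Deviations of same-numbered tumours correlated at -0.0486, 0.0711 and 0.0722, and those of differently numbered tumours at -0.113 to 0.08. With so few tumours these correlations cannot decide whether the numbers pair them. Standard errors of the 9 log2 changes ran from 0.25 to 0.44, and the 95% intervals give the changes these counts leave possible.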

Other observations

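The effective length implied for a gene by its deposited count and TPM moved between tumours. On the log2 scale, relative to the other genes of the same tumour, that of Hspa5 (BiP) was 0.57, 0.48 and 0.09 in PV-10 tumours 1, 2 and 3 and -0.25, -0.32 and -0.30 in PBS tumours 1, 2 and 3. That of P4hb was 0.03, 0.13 and 0.26 in PV-10 tumours and 0.33, 0.33 and 0.33 in PBS tumours. The size of the ratio of P4hb to Hspa5 therefore depended on the unit. It was 224, 183 and 94.2 TPM per 100 in PV-10 tumours and 67.4, 53.5 and 52.9 in PBS tumours. In counts it was 153, 144 and 106 per 100 in PV-10 tumours and 101, 84.0 and 82.3 in PBS tumours. In both units PV-10 tumours lay above PBS tumours without overlap. This ratio was not planned and carries no test, and the share of all genes that would separate likewise was not computed. The cause of the moving lengths was not tested.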
